A study of Oryctolagus cuniculus with 9 samples.

Results

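The genes described here were 9 immediate early genes of the AP-1 and EGR type in rabbit (Oryctolagus cuniculus) vocal folds: FOS, FOSB, FOSL1, JUN, ATF3, EGR1, MYC, ZFP36 and DUSP1. They were chosen by gene name from a set of 10 names, of which JUNB matched no row by name and was not analysed here, so that 9 of the 20525 genes in the deposited table were followed. Polyadenylated RNA was sequenced from 3 injured folds that received the hydrogel SOT (not spelled out in the labels), 3 untreated injured folds and 3 uninjured normal folds. Both injured groups were sampled 1 week after injury. Whether replicates came from separate animals is not stated, so p-values measure only the spread between these libraries, part of which may be technical. Strain, age and any genetic change in the animals are not given in the labels.

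Immediate early genes are transcribed within minutes of a stimulus from factors already present in the cell, and their transcripts are usually short-lived. Proteins of the FOS, JUN and ATF families pair through leucine zippers to form AP-1, which binds the promoters of collagenases, integrins and cytokines, while EGR1 is a zinc finger factor switched on by serum response factor. MYC drives growth genes, ZFP36 (tristetraprolin) binds AU-rich messages and promotes their decay, and DUSP1 removes phosphates from the MAP kinases that switch the whole group on. In wounded tissue these genes are known as early markers of stimulated cells.

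Total counts were between 48444181 and 49434268 in SOT libraries, between 49771566 and 50338111 in untreated libraries and between 44755718 and 45521838 in normal libraries. Counts of the 9 genes ran from 27 to 30110 per library, and the lowest count of any of them other than FOSL1 was 302. The labelled cell type is histiocytes, the resident macrophages, whereas the tissue label is the vocal fold. The summed level of the 11 macrophage markers that could be matched was between 766 and 1287 counts per 1000000 (CPM, scaled by edgeR) in SOT folds, between 1805 and 1968 CPM in untreated folds and between 385 and 544 CPM in normal folds. Stratified epithelium markers summed to between 10280.3 and 16065 CPM in SOT folds, between 12266 and 13854 CPM in untreated folds and between 11692 and 30515 CPM in normal folds. The libraries therefore held whole tissue rather than macrophages alone. In such bulk samples fewer cells of a type and less RNA per cell cannot be told apart.

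Untreated injured folds differed from normal folds in 2 of the 9 genes, the feedback genes ZFP36 and DUSP1. They were 5.87-fold and 3.85-fold higher (edgeR quasi-likelihood test, Benjamini-Hochberg adjusted p of 0.00275 and 0.00705 over all genes tested). Among all 17344 genes tested, 17.7% rose by the same rule, 15.1% fell and 32.8% changed in either direction. The share of these 9 genes that rose was therefore close to the background. FOS, FOSL1 and EGR1 did not pass but were higher in every untreated library than in every normal one, as were 28% of all genes. JUN, FOSB, ATF3 and MYC overlapped between the groups. In SOT folds 1 of the 9, ZFP36, was higher than in normal folds, against 9.01% of all genes higher, 7.67% lower and 16.7% changed in either direction. None of the 9 passed between SOT and untreated folds, where 0.0115% of all genes (2 genes) passed. Without SOT replicate 1, 397 genes (2.24%) passed in that comparison and still none of the 9. Alternative fits are named below. In untreated against normal folds, 41.4% of all genes passed with DESeq2 (20.5% as higher). There 38.5% (20.1% as higher) passed when only the 6 libraries compared were fitted, and 34.1% (18.4% as higher) without SOT replicate 3. In SOT against normal folds these shares were 27.7% (14.2% as higher), 9.33% (4.09% as higher) and 18.2% (11.3% as higher).

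Among the FOS family, FOS, the founding AP-1 subunit, had 267, 563 and 64.2 CPM in SOT replicates 1, 2 and 3, 273, 397 and 361 CPM in the untreated replicates, and 128, 92.4 and 29.8 CPM in the normal replicates. All untreated libraries were above all normal ones, as in 28% of all genes tested, while SOT replicate 3 lay between normal replicates 2 and 3 and SOT replicate 2 was the highest of the 9. FOS averaged 344 ± 63.7 CPM in untreated folds and 83.4 ± 49.7 CPM in normal folds (SD, n = 3 each), a log2 change of 2.04 (SE 0.75, 95% interval 0.34 to 3.75, edgeR adjusted p = 0.0669). With DESeq2 the adjusted p was 0.0108. With edgeR it was 0.0201 when only the untreated and normal libraries were fitted, 0.0441 without SOT replicate 2 and 0.022 without SOT replicate 3. With the replicate number as a block it was 0.0345 (edgeR), so the call depended on the fit. In SOT folds FOS averaged 298 ± 251 CPM, with a log2 change of 1.84 against normal folds (SE 0.74, edgeR adjusted p = 0.122) and of -0.21 against untreated folds (SE 0.72, edgeR adjusted p = 0.929). Without SOT replicate 3 the change against normal folds was 2.36 (edgeR adjusted p = 0.0295) and that against untreated folds was 0.32.

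FOSB, the close relative of FOS, had 12.9, 54.4 and 5.61 CPM in SOT replicates 1, 2 and 3, 21.1, 17.1 and 16.5 CPM in the untreated replicates, and 11.0, 22.4 and 15.4 CPM in the normal replicates. The untreated libraries lay inside the range of the normal ones, and the SOT libraries held both the highest and the lowest value of the 9. FOSB averaged 24.3 ± 26.3 CPM in SOT folds, 18.2 ± 2.48 CPM in untreated folds and 16.3 ± 5.72 CPM in normal folds (SD, n = 3 each), and its log2 change was 0.16 in untreated against normal folds (edgeR adjusted p = 0.881). FOSL1 (FRA-1), which in other mammals is induced later and for longer than FOS, had 3.58, 2.50 and 0.725 CPM in SOT replicates, 4.10, 5.37 and 5.09 CPM in untreated replicates, and 0.622, 2.81 and 1.40 CPM in normal replicates. Every untreated library was above every SOT and every normal library, and 28% of all genes tested had every untreated library above every normal one. The log2 change of FOSL1 was 1.59 in untreated against normal folds (SE 0.65, edgeR adjusted p = 0.0919) and -1.10 in SOT against untreated folds (SE 0.64, edgeR adjusted p = 0.517), and 12.4% of all genes tested had every SOT library below every untreated one. Without SOT replicate 3 the first of these passed (edgeR adjusted p = 0.0487), as it did with DESeq2 (adjusted p = 0.0448). A gene on the opposite strand overlaps FOSL1 and had at most 69 counts in a library. Whether the counting used strand is not given, so reads of the pair may be shared.

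**Figure D1:**
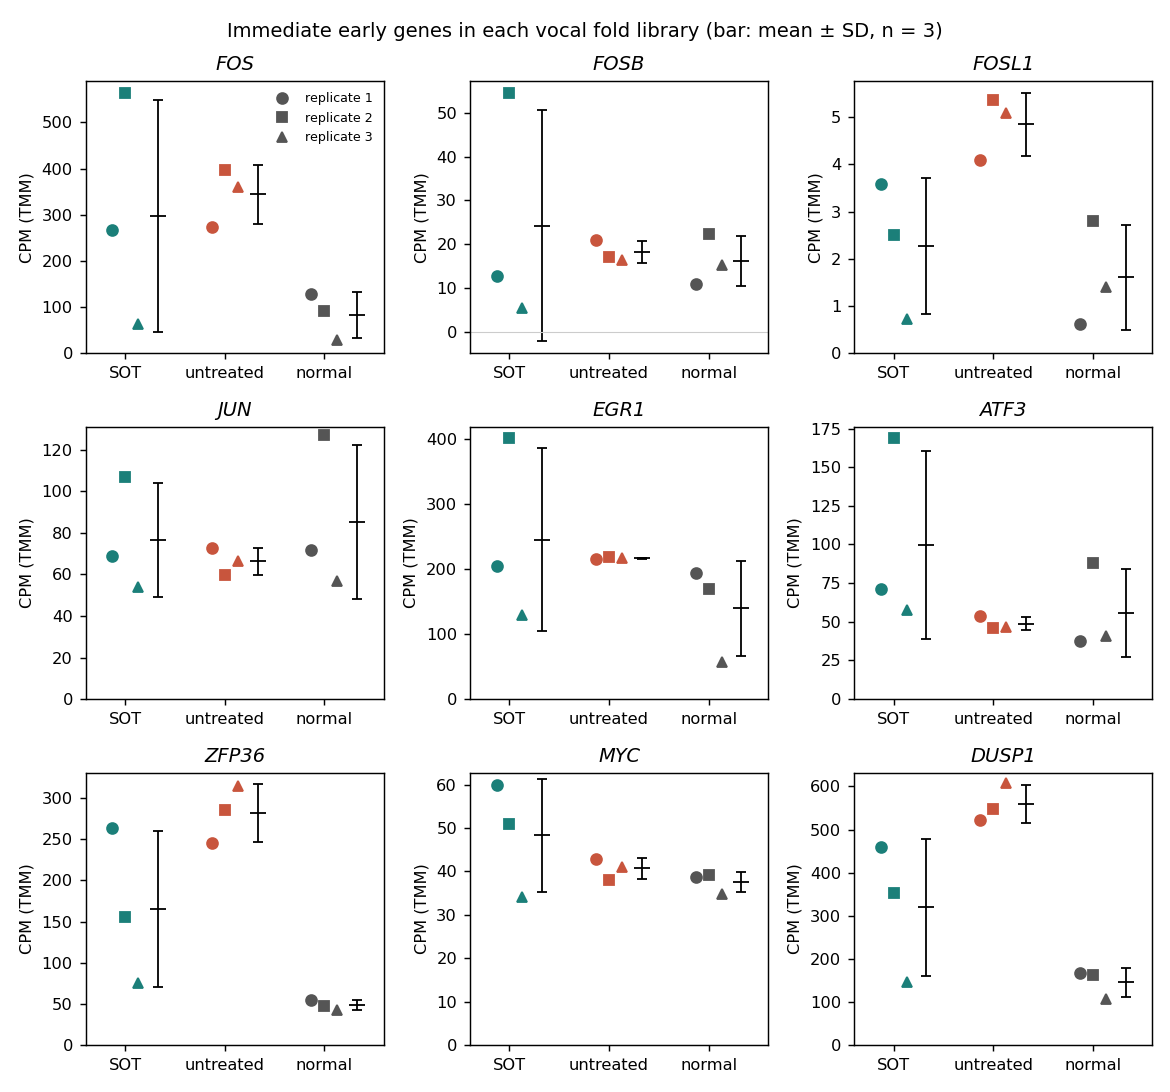
Level of each of the 9 genes in each library (CPM, linear axes that differ between panels), with SOT folds at the left, untreated folds in the middle and normal folds at the right; symbols are replicates and bars are the mean ± SD (n = 3). ZFP36 and DUSP1 were between 245 and 315 CPM and between 523 and 607 CPM in untreated folds, against 42.3 to 54.3 CPM and 106 to 168 CPM in normal folds, and the SOT libraries were spread widely for FOS and FOSB.

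The relative make-up of the FOS family was compared per transcript length, as each gene's share of the summed FPKM (fragments per kilobase per 1000000 fragments, as deposited) of FOS, FOSB, FOSL1 and FOSL2. FOS held 53.6% ± 23.1 in SOT folds, 57.5% ± 4.73 in untreated folds and 41.0% ± 21.7 in normal folds, and FOSL2 held 42.6% ± 24.9 in SOT folds, 38.9% ± 4.17 in untreated folds and 51.4% ± 20.7 in normal folds (SD, n = 3 each). FOS and FOSL2 together therefore made up nearly all of the family's FPKM in each group. The share of FOSB was 3.11%, 2.04% and 2.08% in untreated libraries, against 3.94%, 8.71% and 6.81% in normal libraries. The FOSB share was thus lower in every untreated library, with a mean difference of -4.08 percentage points. The exact two-sided permutation p was 0.1, the smallest that 3 against 3 libraries allow, and the adjusted p was 0.6 over 12 such tests. The FOSL1 share was 1.03%, 0.455% and 0.441% in SOT libraries, against 1.07%, 1.13% and 1.14% in untreated libraries, again without overlap and with the same exact p of 0.1 (adjusted p = 0.6). FOSL2 (FRA-2) itself rose to 707 ± 5.33 CPM in untreated folds, against 302 ± 88.3 CPM in normal folds (SD, n = 3 each; log2 change 1.22, SE 0.21, edgeR adjusted p = 0.00427). It was 496 ± 84.4 CPM in SOT folds (SD, n = 3), where its change against normal folds missed the threshold (log2 change 0.71, edgeR adjusted p = 0.0522).

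JUN, the main partner of FOS in AP-1, had 68.8, 107 and 53.9 CPM in SOT replicates 1, 2 and 3, 72.7, 59.8 and 66.4 CPM in the untreated replicates, and 71.8, 127 and 56.7 CPM in the normal replicates. The 3 groups overlapped, and JUN was the only one of the 9 with a lower mean in both injured groups than in normal folds. It averaged 76.6 ± 27.5 CPM in SOT folds, 66.3 ± 6.45 CPM in untreated folds and 85.2 ± 36.9 CPM in normal folds (SD, n = 3 each). Its log2 change was -0.36 in untreated against normal folds (edgeR adjusted p = 0.431) and -0.15 in SOT against normal folds (edgeR adjusted p = 0.789). Without normal replicate 2, the highest of the 9 libraries, these changes were 0.04 and 0.25.

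ATF3, a stress-induced factor that pairs with JUN, had 71.1, 169 and 57.9 CPM in SOT replicates 1, 2 and 3, 53.5, 45.8 and 46.8 CPM in the untreated replicates, and 37.6, 88.3 and 40.9 CPM in the normal replicates. Every SOT library was above every untreated library, as in 7.4% of all genes tested, while untreated and normal libraries overlapped. ATF3 averaged 99.5 ± 60.9 CPM in SOT folds and 48.7 ± 4.21 CPM in untreated folds (SD, n = 3 each), a log2 change of 1.03 (SE 0.45, edgeR adjusted p = 0.395). It was the only one of the 9 with an unadjusted p under 0.05 in that comparison, as were 12.6% of all genes tested. With DESeq2 and limma none of the 9 passed after adjustment, against 3.93% of all genes with DESeq2. Relative to JUN on the FPKM scale, ATF3 stood at log2 ratios of -1.57, -0.96 and -1.52 in SOT libraries, -2.06, -2.01 and -2.13 in untreated libraries and -2.56, -2.15 and -2.09 in normal libraries. The ratio was higher in every SOT library than in every other library, by a mean of 0.72 over untreated folds and 0.91 over normal folds (exact two-sided permutation p = 0.1 each, the smallest possible, adjusted p = 0.25 over 15 ratio tests).

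EGR1 had 204, 401 and 129 CPM in SOT replicates 1, 2 and 3, 215, 218 and 217 CPM in the untreated replicates, and 193, 169 and 56.8 CPM in the normal replicates. Each untreated library was above each normal one, as in 28% of all genes tested. The untreated libraries were nearly equal to each other, at 216 ± 1.22 CPM (SD, n = 3). The log2 change of EGR1 was 0.63 in untreated against normal folds (SE 0.49, edgeR adjusted p = 0.355), 0.18 in SOT against untreated folds (SE 0.49, edgeR adjusted p = 0.91) and 0.81 in SOT against normal folds (edgeR adjusted p = 0.289). SOT folds averaged 245 ± 140.5 CPM and normal folds 139.7 ± 72.9 CPM (SD, n = 3 each).

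MYC had 59.8, 50.9 and 34.1 CPM in SOT replicates 1, 2 and 3, 42.9, 38.1 and 41.1 CPM in the untreated replicates, and 38.6, 39.1 and 34.8 CPM in the normal replicates. SOT replicates 1 and 2 were above every other library and SOT replicate 3 was below them all. MYC averaged 48.3 ± 13.1 CPM in SOT folds, 40.7 ± 2.42 CPM in untreated folds and 37.5 ± 2.34 CPM in normal folds (SD, n = 3 each). Its log2 change was 0.12 in untreated against normal folds (edgeR adjusted p = 0.666) and 0.36 in SOT against normal folds (edgeR adjusted p = 0.211). Without SOT replicate 3 the SOT change was 0.59 and passed (edgeR adjusted p = 0.0147).

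ZFP36 had 264, 155 and 75.4 CPM in SOT replicates 1, 2 and 3, 245, 286 and 315 CPM in the untreated replicates, and 54.3, 47.7 and 42.3 CPM in the normal replicates. Every injured library, with or without SOT, was above every normal one, and only SOT replicate 1 fell in the range of the untreated libraries. Every untreated library was above every normal one in 28% of all genes tested. ZFP36 averaged 165 ± 94.9 CPM in SOT folds, 282 ± 35.2 CPM in untreated folds and 48.1 ± 6.01 CPM in normal folds (SD, n = 3 each). It rose in untreated against normal folds by 2.55 on the log2 scale (SE 0.40, 95% interval 1.65 to 3.46) and passed in 15 of 15 alternative fits. The rise in SOT against normal folds was 1.78 (SE 0.39, 95% interval 0.90 to 2.66, 3.43-fold, edgeR adjusted p = 0.0194), with every SOT library above every normal one, as in 17.8% of all genes. That call was lost when only the SOT and normal libraries were fitted (edgeR adjusted p = 0.0542) and without normal replicate 1, 2 or 3 (edgeR adjusted p of 0.0596, 0.0648 and 0.0533). In SOT against untreated folds the log2 change was -0.78 (95% interval -1.64 to 0.08, edgeR adjusted p = 0.439).

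DUSP1 had 459, 353 and 145 CPM in SOT replicates 1, 2 and 3, 523, 547 and 607 CPM in the untreated replicates, and 168, 162 and 106 CPM in the normal replicates. Every untreated library was above every SOT and every normal one, and SOT replicate 3 alone among the SOT libraries fell in the normal range. Among all genes tested, 28% had every untreated library above every normal one. Every SOT library was below every untreated one in 12.4% of them. DUSP1 averaged 319 ± 160.0 CPM in SOT folds, 559 ± 43.5 CPM in untreated folds and 145 ± 34.5 CPM in normal folds (SD, n = 3 each). It rose in untreated against normal folds by 1.95 on the log2 scale (SE 0.38, 95% interval 1.07 to 2.82) and passed in 15 of 15 alternative fits. In SOT folds its log2 change was 1.14 against normal folds (SE 0.38, edgeR adjusted p = 0.072) and -0.81 against untreated folds (95% interval -1.66 to 0.04, edgeR adjusted p = 0.416). Without SOT replicate 3 the change against normal folds was 1.52 and passed (edgeR adjusted p = 0.00609), as it did with DESeq2 (adjusted p = 0.0182).

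The cell mixture was followed by summed markers, and several of these sums differed between the groups and between the SOT libraries. Macrophage markers summed to 1287, 783 and 766 CPM in SOT replicates 1, 2 and 3, and endothelial markers to 1550.1, 874 and 543 CPM in the same libraries, so that SOT replicate 1 was the highest of the SOT libraries in both, as it was for ZFP36, MYC and DUSP1. The 9 neutrophil markers that could be matched summed to 4975, 1784 and 2005 CPM in SOT replicates, to between 5049.6 and 7173 CPM in untreated folds and to between 598 and 2049 CPM in normal folds. S100A8, S100A9 and S100A12 carried most of it, with 168, 696 and 1081 CPM in SOT replicate 3 and 192, 371 and 1449 CPM in normal replicate 3. The other matched neutrophil markers were each higher in every SOT library than in every normal one, as were 17.8% of all genes tested. For PADI4 the nearest values were 0.836 and 0.83 CPM. Fibroblast markers summed to 20154, 40873 and 22139.5 CPM in SOT replicates, to between 43591 and 47550.5 CPM in untreated folds and to between 11696 and 14503 CPM in normal folds. SOT replicate 2, the highest of these SOT libraries, was also the highest of them for FOS, FOSB, JUN, EGR1 and ATF3. The collagens COL1A1, COL1A2 and COL3A1, at 11688, 13125 and 14772 CPM on average in untreated folds, carried most of that sum. Of the 9 fibroblast markers, 5 rose and 2 fell in untreated against normal folds. The 2 were DCN (1223 CPM in untreated folds, 1898 CPM in normal folds) and THY1 (82.1 and 185 CPM). T cell markers summed to 82.8 CPM in SOT replicate 3, against at most 16.4 CPM in the other SOT libraries, at most 16.5 CPM in untreated folds and at most 23.1 CPM in normal folds. Skeletal muscle markers summed to between 1294 and 7739 CPM in SOT folds, between 665 and 5600 CPM in untreated folds and between 16732 and 22577 CPM in normal folds, and cartilage markers to between 117 and 534, between 79.2 and 144 and between 2244 and 4592 CPM. SOT replicate 1 was also the highest SOT library for skeletal muscle and neutrophil markers. The part of these mixtures in the results was not tested.

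**Figure D2:**
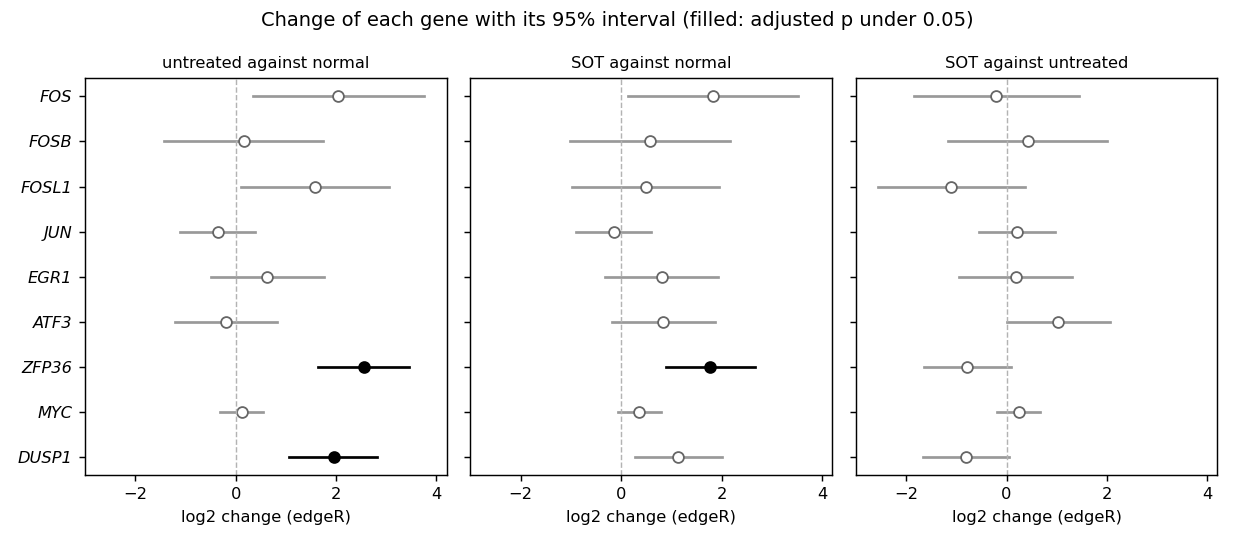
Log2 change of each of the 9 genes with its 95% interval (edgeR) in untreated against normal, SOT against normal and SOT against untreated folds; filled points passed an adjusted p under 0.05. ZFP36 (2.55) and DUSP1 (1.95) passed in untreated against normal folds, ZFP36 (1.78) alone passed in SOT against normal folds, and in SOT against untreated folds the interval of ATF3 ran from 0.00 to 2.06 while the other intervals included 0.

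The libraries of a group differed far more in SOT folds than in untreated folds. The SD of log2(CPM + 0.5) was 1.59 in SOT folds, 0.28 in untreated folds and 1.09 in normal folds for FOS, and for FOSB it was 1.60 in SOT folds, 0.19 in untreated folds and 0.49 in normal folds. Among all genes tested the median SD was 0.26 in SOT folds, 0.16 in untreated folds and 0.21 in normal folds. All 9 genes were above that median in SOT folds, 4 were in untreated folds and 7 were in normal folds. The SD of FOS stood at percentile 98.5 of all genes in SOT folds, where its highest library was 8.77 times its lowest, and FOSB stood at percentile 98.6 with a ratio of 9.69. EGR1 ran from percentile 90.5 in SOT folds to 0.652 in untreated folds and 97.5 in normal folds. ZFP36 and MYC varied little among normal libraries, with SDs of 0.18 and 0.09, against 0.90 and 0.41 in SOT folds.

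**Figure D3:**
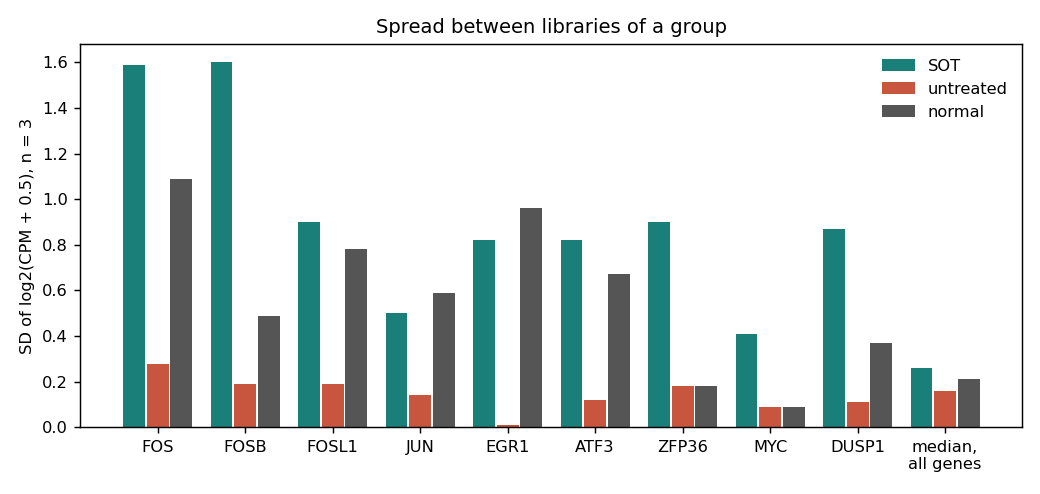
Spread of each of the 9 genes among the 3 libraries of a group (SD of log2(CPM + 0.5)), with 1 bar each for SOT, untreated and normal folds; the bars at the far right give the median of all genes tested (0.26 in SOT folds, 0.16 in untreated folds and 0.21 in normal folds). All 9 genes were above that median in SOT folds, with FOS at 1.59 and FOSB at 1.60.

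Within groups the 9 genes fell along different libraries, which the correlation of their deviations from group means over the 9 libraries describes; these points share library and depth. FOS went most closely with EGR1 (r = 0.93) and DUSP1 (r = 0.86). JUN and FOSB went with ATF3 (r = 0.94 and 0.90), and each was highest in replicate 2 among SOT libraries and in replicate 2 among normal libraries. ZFP36, MYC and DUSP1 went together (r between 0.92 and 0.95), with SOT replicate 1 the highest for MYC and the highest of the SOT libraries for the other genes. ATF3 and ZFP36 were the least alike (r = 0.16). The same measure was taken over 12493 genes with a symbol and a mean of at least 1 CPM. Those most like FOS were IRAK3 (r = 0.986), VOPP1 and YIPF5 (0.984 each), CBX6 (0.983) and NPTX1 (0.982). GMPPB (0.987) and DKK1 (0.985) were most like EGR1, PFKFB3 (0.988) and FAM181B (0.984) most like ZFP36, and SERPINF1 (0.988) most like MYC. These values were picked as the highest of many over only 9 libraries, so r this high can arise from the picking alone.

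In order of FPKM, which allows genes to be compared per length, untreated folds ran from DUSP1 (227), ZFP36 (149), FOS (137), EGR1 (56.5) and JUN (50.0) to MYC (14.7), ATF3 (11.9), FOSB (5.60) and FOSL1 (2.64), and only ZFP36 and FOS overlapped among neighbours. In SOT folds the order was DUSP1 (141), FOS (131), ZFP36 (94.4), EGR1 (70.5), JUN (63.7), ATF3 (27.0), MYC (19.1), FOSB (8.29) and FOSL1 (1.33), and all neighbours overlapped. In normal folds JUN was first at 65.6 FPKM, followed by DUSP1 (60.1), EGR1 (37.1), FOS (33.8), ZFP36 (25.9), ATF3 (13.9), MYC (13.8), FOSB (5.12) and FOSL1 (0.892), and neighbours overlapped except ZFP36 with ATF3, MYC with FOSB and FOSB with FOSL1. JUN was above DUSP1 in only 1 of the 3 normal libraries, replicate 2, so its first place in the normal mean rests on that library. The JUN model in the deposited table spans only 1116 bases, which bears on its FPKM. The log2 ratio of DUSP1 to EGR1 was 1.81, 0.45 and 0.80 in SOT libraries, 1.92, 1.97 and 2.12 in untreated libraries and 0.44, 0.57 and 1.53 in normal libraries. It was highest in every untreated library, with mean differences of 1.16 for untreated against normal folds and -0.98 for SOT against untreated folds (exact two-sided permutation p = 0.1 each, adjusted p = 0.25 over 15 ratio tests). The ratio of ZFP36 to FOS overlapped between all groups, at -0.14 ± 1.15 in SOT folds, 0.13 ± 0.17 in untreated folds and -0.16 ± 0.93 in normal folds (SD, n = 3 each).

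Other factors of the AP-1 type were counted beside the 9 genes: of 9 tested, 4 rose and 1 fell in untreated against normal folds, with a median log2 change of 0.32 against -0.02 over all genes. Among all genes tested 17.7% rose and 15.1% fell in that comparison, and 9.01% rose and 7.67% fell in SOT against normal folds. BATF and BATF2, AP-1 partners of lymphoid and myeloid cells, rose in untreated folds by 2.62 and 3.42 on the log2 scale (edgeR adjusted p of 0.00113 and 0.00253). MAF fell to 2.72 ± 1.66 CPM in untreated folds, against 9.43 ± 2.94 CPM in normal folds (SD, n = 3 each; edgeR adjusted p = 0.0202), a call lost without untreated replicate 3 (edgeR adjusted p = 0.0707) or normal replicate 1 (edgeR adjusted p = 0.0682). In SOT against normal folds 3 of the 9 rose and 1 fell, and the fall, again of MAF, was lost without SOT replicate 2 (edgeR adjusted p = 0.0591) or normal replicate 1 (edgeR adjusted p = 0.0679).

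Of 4 other EGR and NAB genes tested, EGR2 was higher and NAB2, a repressor that binds EGR proteins, was lower in untreated folds. By the same rule 17.7% of all genes tested were higher and 15.1% were lower. EGR2 averaged 24.7 ± 0.556 CPM in untreated folds and 5.80 ± 3.09 CPM in normal folds (SD, n = 3 each; edgeR adjusted p = 0.0228), and NAB2 averaged 16.3 ± 1.94 CPM and 26.2 ± 4.76 CPM (edgeR adjusted p = 0.0135). The EGR2 call was lost without untreated replicate 2 or 3 or normal replicate 1 or 3 (edgeR adjusted p of 0.0567, 0.0639, 0.0783 and 0.072), and the NAB2 call without untreated replicate 2 or 3 (edgeR adjusted p of 0.0565 and 0.0557).

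Of 16 other immediate early genes tested, 8 rose and 1 fell in untreated against normal folds, with a median log2 change of 0.93. Among all genes tested 17.7% rose and 15.1% fell there, and 9.01% rose in SOT against normal folds. The cytokine-signalling inhibitor SOCS3 rose to 322 ± 27.6 CPM in untreated folds, against 14.0 ± 4.99 CPM in normal folds (SD, n = 3 each; log2 change 4.52, SE 0.80, edgeR adjusted p = 0.0044). IER2, MCL1, IER3, KLF6 and BTG2 also rose, by between 0.77 (KLF6) and 2.27 (IER3) on the log2 scale. The fall was that of KLF4, named after its values were seen, and it did not pass with no filter on low counts or without SOT replicate 2, untreated replicate 2 or 3, or normal replicate 1 or 2. In SOT against normal folds 5 of the 16 rose, a count that was 1 without normal replicate 1 or 2. It was 2 or 3 without SOT replicate 1 or 2, untreated replicate 3 or normal replicate 3. Between 3.27% and 7.57% of all genes rose in those fits. IER2 was at 37.2 ± 3.84 CPM in SOT folds and 23.1 ± 2.17 CPM in normal folds (SD, n = 3 each; edgeR adjusted p = 0.0104) and passed without any 1 library.

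Transcripts that the ZFP36 protein is known to bind in human or mouse cells were high together with ZFP36. Of 12 tested, 11 rose in untreated against normal folds, with a median log2 change of 3.72. In SOT against normal folds 8 rose, with a median of 2.87. Over all genes the medians were -0.02 and 0.02, and 17.7% and 9.01% of genes rose. The cyclooxygenase gene PTGS2 averaged 345 ± 112 CPM in untreated folds and 24.4 ± 4.60 CPM in normal folds (SD, n = 3 each; edgeR adjusted p = 0.00472), and the haem oxygenase gene HMOX1 averaged 115 ± 11.1 CPM and 32.8 ± 4.77 CPM (edgeR adjusted p = 0.00176). CSF2, the growth factor GM-CSF, had no counts in any normal library and was at least 22.1-fold higher in untreated folds and at least 10.4-fold higher in SOT folds, against a floor of 3 counts per library. These bounds are for group means, and CSF2 had 1.25, 0.71 and 0.13 CPM in SOT replicates 1, 2 and 3. Without normal replicate 1 the count in untreated folds was 7 of 12, where 12.2% of all genes rose. In SOT folds the count was between 2 and 5 without SOT replicate 1 or 2, untreated replicate 3 or any 1 normal library. Between 3.27% and 7.57% of all genes rose in those fits. Summed neutrophil and macrophage markers were also higher in untreated than in normal folds, as given above, and their part in these changes was not tested.

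Of 16 AP-1 target genes tested, 12 rose in untreated against normal folds, with a median log2 change of 3.19. In SOT against normal folds 9 rose, with a median of 2.15. Among all genes tested 17.7% and 9.01% rose in these comparisons. PLAUR and VEGFA were on both this list and that of the ZFP36-bound transcripts, so the counts of these lists are not separate. The collagenase MMP1 averaged 1129.6 ± 106 CPM in untreated folds and 40.1 ± 13.1 CPM in normal folds (SD, n = 3 each; edgeR adjusted p = 0.00124), and the fibronectin receptor subunit ITGA5 averaged 363 ± 37.1 CPM and 59.6 ± 17.0 CPM (edgeR adjusted p = 0.00226). These 2 calls, with those of MMP9, MMP12, PLAU and PLAUR, held without any 1 library. In SOT folds the count of 9 was 4 without SOT replicate 2, where 5.74% of all genes rose. It was 2, 2 and 5 without normal replicates 1, 2 and 3, where 3.27%, 4.47% and 7.57% rose. When only the 6 libraries compared were fitted, 4.09% of all genes rose in SOT against normal folds. The counts that rose there were 4 for the AP-1 targets, 2 for the ZFP36-bound transcripts and 1 for the other immediate early genes.

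Among 10 other dual-specificity phosphatases, 3 rose and 1 fell in untreated against normal folds, against 17.7% and 15.1% of all genes. DUSP6, the ERK phosphatase, averaged 196 ± 8.29 CPM in untreated folds and 60.6 ± 11.2 CPM in normal folds (SD, n = 3 each; edgeR adjusted p = 0.00726), and DUSP10, which acts on p38 and JNK, fell to 19.2 ± 4.11 CPM, against 45.1 ± 1.96 CPM (edgeR adjusted p = 0.00725). The count of 3 was 1 without untreated replicate 2 or 3 or normal replicate 2, where 11.3%, 10.8% and 13% of all genes rose. The 2 relatives of ZFP36, ZFP36L1 and ZFP36L2, were higher by 0.41 and 0.60 on the log2 scale in untreated folds (edgeR adjusted p of 0.0225 and 0.00918), and the ZFP36L1 call was lost without any 1 of the untreated or normal libraries (edgeR adjusted p between 0.0526 and 0.0803). Of 10 MYC partners, 3 rose and 1 fell, against the same shares of all genes. MXD1, which competes with MYC for MAX, rose to 295 ± 6.69 CPM in untreated folds, against 45.0 ± 15.7 CPM in normal folds (SD, n = 3 each; edgeR adjusted p = 0.0104). MLX fell by 0.34 on the log2 scale, a call lost without untreated replicate 2 or 3 or any 1 normal library (edgeR adjusted p between 0.0538 and 0.134).

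Of 17 MYC target genes, 6 rose and 1 fell in untreated against normal folds, against 17.7% and 15.1% of all genes. The 6 were 3 without untreated replicate 2 or 3 or normal replicate 2, where 11.3%, 10.8% and 13% of all genes rose. The fall, of CCND2, was lost without any 1 untreated library or normal replicate 1 or 2 (edgeR adjusted p between 0.0698 and 0.0936). CDK4 and CAD were higher by 0.74 and 0.79 on the log2 scale (edgeR adjusted p of 0.00688 and 0.00953) and passed without any 1 library. Of 19 upstream kinases and serum response factors, 7 rose and 2 fell, against the same shares of all genes. The 7 were 4 without untreated replicate 2 or 3 or normal replicate 1, where 11.3%, 10.8% and 12.2% of all genes rose. The 2 that fell were 0 without any 1 of these 3 libraries, where 7.99%, 6.94% and 9.49% of all genes fell. They were 1 without normal replicate 2, where 10.1% fell. RPS6KA1, a kinase downstream of ERK, averaged 115 ± 21.3 CPM in untreated folds and 42.1 ± 4.38 CPM in normal folds (SD, n = 3 each; edgeR adjusted p = 0.000816).

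In SOT against untreated folds no gene of any of these lists passed with edgeR and all 9 libraries. Without SOT replicate 1, 2 of the ZFP36-bound transcripts passed as lower, as did 1 gene each of the AP-1 targets, MYC targets, MYC partners, dual-specificity phosphatases and upstream kinases. In that fit 1.81% of all genes passed as lower. With DESeq2, 3 AP-1 targets, 2 other immediate early genes, 2 other AP-1 factors and 1 upstream gene passed, all lower. Of all genes, 2.61% passed as lower with DESeq2. The median log2 changes were -0.96 for the AP-1 targets, -0.67 for the ZFP36-bound transcripts, -0.35 for the other immediate early genes and 0.01 over all genes. At an unadjusted p under 0.05 there were 5 of 16, 0 of 12 and 2 of 16 genes, against 12.6% of all genes. This comparison and that of untreated with normal folds share the untreated libraries.

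**Figure D4:**
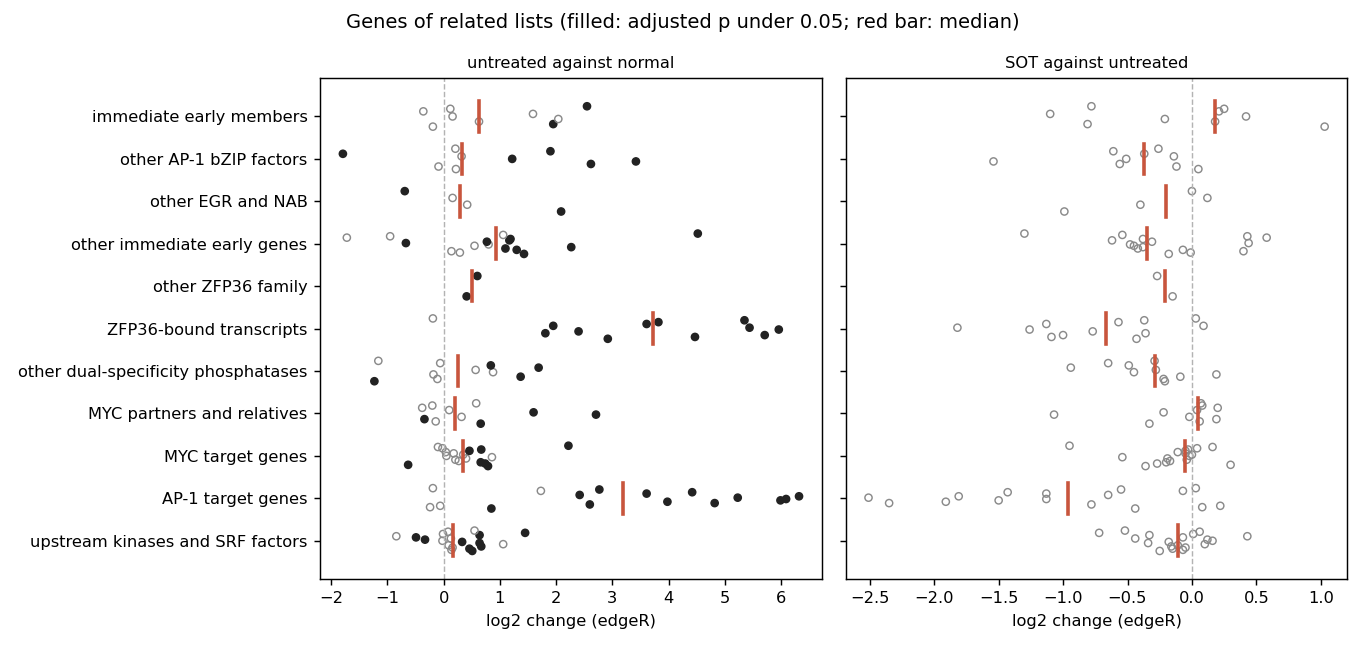
Log2 change of each tested gene among the 9 genes (top row) and in the lists around them, in untreated against normal folds and in SOT against untreated folds; points are genes, filled where the adjusted p was under 0.05 (edgeR), the bars are medians, and CSF2 is drawn at its lower bound in untreated against normal folds. The medians of the ZFP36-bound transcripts and the AP-1 targets were 3.72 and 3.19 in untreated against normal folds and -0.67 and -0.96 in SOT against untreated folds.

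On the OryCun2.0 build, FOS lies on chromosome 20 from 29860066 to 29863336 (minus strand), JUN on chromosome 13 from 107997083 to 107998198 (plus strand) and ATF3 on chromosome 16 from 60421650 to 60434504 (minus strand). EGR1 (20738615 to 20742487, plus strand), DUSP1 (53838319 to 53841423, minus strand) and MYC (143523861 to 143528653, plus strand) all lie on chromosome 3. ZFP36 lies on chromosome 5 from 557509 to 559104 (minus strand), FOSL1 on chromosome 1 from 193696805 to 193702502 (minus strand) and FOSB on an unplaced scaffold from 121963 to 125744 (plus strand). Values are for whole gene models, and isoforms were not separated.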

How the data were processed

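Per the submitters' processing notes, cutadapt 1.9, HISAT2 2.0.4, StringTie 1.3.4d and edgeR were used with the build OryCun2.0; which tool made which column, the strandedness and the treatment of shared reads are not stated. Per the file headers, the deposited table holds, for each gene and library, a read count and the FPKM. The 9 libraries' counts went into edgeR 4.0.16 (R 4.3.3): 17344 genes were kept by its expression filter, scaling was by TMM, and the quasi-likelihood fit used all libraries with a mean for each group. A gene passed when its Benjamini-Hochberg adjusted p was under 0.05 over all tested genes. CPM are TMM-scaled counts. Deposited FPKM were used for order, shares and ratios, with exact permutation tests over libraries. Folds against groups at 0 use a floor of 3 counts per library, equal to between 0.0557 and 0.0692 CPM; floors cover counting error only.

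The 9 genes, the gene lists and the tests were chosen with earlier results of these data known. All 9 genes are named; from each list, up to 6 genes that passed in a comparison were eligible by smallest adjusted p. A result for 1 eligible gene is not reported here. KLF2, MAF, DUSP8, ADGRE1 and KRT13 were named through RefSeq gene IDs (mOryCun1.1, names only). Alternatives were DESeq2 1.42.0, upper quartile scaling, no filter on low counts, limma 3.58.1 on log2(FPKM + 0.1), only the 6 libraries compared, the replicate number as a block, and each library left out. Counts of libraries of a group differed beyond sampling noise. The chi-square per gene was 301.5 to 318.4 between SOT libraries and 131.9 to 279.6 between normal ones. Between untreated libraries it was 189.8 (replicates 1 and 2), 74.69 (1 and 3) and 47.96 (2 and 3). Untreated replicate 3 was thus closer to both others than any pair of the other groups. Whether the untreated libraries are independent is not given in the labels, so their spread may be too small. The model was tested on simulated data.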

Additional observations from a re-analysis of the deposited data

How the results depend on the processing

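In untreated against normal folds the number of the 9 genes that passed was 2, and it was between 2 and 4 with each library left out. With DESeq2 it was 4, adding FOS and FOSL1, all 4 higher. There 41.4% of all genes passed, 20.5% as higher. In SOT against normal folds it was 1, and it was 3 with DESeq2, all higher (27.7% of all genes passed, 14.2% as higher). It was 0 when only the 6 libraries compared were fitted, where 9.33% of all genes passed, 4.09% as higher. With each library left out it was between 0 and 4. It was 4 without SOT replicate 3, all higher, where 18.2% of all genes passed, 11.3% as higher. It was 0 without normal replicate 1, 2 or 3, where 6.42%, 8.16% and 13.4% of all genes passed (3.27%, 4.47% and 7.57% as higher). In SOT against untreated folds it was 0 under all 15 alternatives. Whether replicate numbers pair the samples is not given in the labels. Same-numbered libraries deviated together with r between -0.0527 and 0.406, and not every library correlated best with its own number. With 3 libraries a group such correlations cannot settle whether the samples were paired. With the replicate number as a block, 3 of the 9 genes passed in untreated against normal folds, all higher. FOS was the gene added (edgeR adjusted p = 0.0345), and 31.9% of all genes passed, 16.7% as higher. With the block, 0 of the 9 passed in SOT against untreated folds. In SOT against normal folds 1 passed, where 15.1% of all genes passed, 7.13% as higher. The calls of MLX and KLF4 in untreated against normal folds were also lost with the block. In SOT against untreated folds the log2 change of FOSB was -0.04 with limma and -0.09 with the block, and that of EGR1 was -0.01 with the block, against 0.42 and 0.18. Leaving out each library turned the sign of small changes: in untreated against normal folds FOSB ran from -0.05 to 0.46, JUN from -0.60 to 0.04 and ATF3 from -0.41 to 0.31; in SOT against untreated folds FOS ran from -1.03 to 0.32, FOSB from -0.96 to 0.93, JUN from -0.10 to 0.45 and EGR1 from -0.36 to 0.53; in SOT against normal folds FOSB ran from -0.81 to 1.09 and JUN from -0.47 to 0.25. None of these passed. On CPM in place of FPKM, the difference in share of the FOS family was 0.129 percentage points for FOS and -0.792 for FOSL2 in SOT against untreated folds, and 0.0453 for FOSL1 in untreated against normal folds. With each library left out, the share differences ran from -14.8 to 8.18 (FOS), -0.372 to 1.45 (FOSB) and -9.26 to 15.5 (FOSL2) in SOT against untreated folds, from -0.389 to 0.378 (FOSL1) in untreated against normal folds and from -21.7 to 3.06 (FOSL2) in SOT against normal folds. Log2 ratios ran from -0.05 to 0.82 (ZFP36 over FOS) and -1.40 to 0.23 (FOSL1 over FOS) in untreated against normal folds, from -0.67 to 0.38 (ZFP36 over FOS) and -0.04 to 0.56 (MYC over EGR1) in SOT against untreated folds, and from -0.22 to 0.51 (DUSP1 over EGR1) and -0.38 to 0.67 (ZFP36 over FOS) in SOT against normal folds. The cause of these changes was not tested. Over all genes in untreated against normal folds, 3074 rose and 2618 fell with TMM scaling, and 2587 rose and 3193 fell with upper quartile scaling. The planned JUN family composition was not run, because JUNB and JUND matched no row by name. With 3 libraries a group, the exact tests could not go below 0.1. FOSL1 had the lowest count of the 9 genes, 27 in 1 library. In untreated against normal folds its SE was 0.65, against 0.75 for FOS and 0.69 for FOSB.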
